A study of Mus musculus with 48 samples.

Results

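BCAA (branched-chain amino acid) catabolism is followed here through 10 genes chosen by name from the 56748 gene identifiers counted in each library: Bcat2, Bckdha, Bckdhb, Dbt, Ivd, Mccc1, Mccc2, Aldh6a1, Pcca and Pccb. All 10 were found and passed the filter on low counts in the 3 tissues, which were liver, brown fat (BAT) and epididymal white fat (eWAT). The male mice were either labelled as deficient in hepatocyte angiotensinogen (hepAGT-/-, called KO below) or were their littermates (hepAGT+/+, called WT). All of them, controls included, had eaten Western diet with 21% milk fat and 0.2% cholesterol over 12 weeks. Housing was either RT, room temperature at 20 to 22 °C, or TN, thermoneutrality at 30 °C. This made 12 groups of 4 libraries, 48 in all, which the labels call biological replicates. The labels give neither the age of the mice nor the promoter that drove the deletion.

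Leucine, isoleucine and valine are broken down in mitochondria by shared opening steps and then by separate branches. An aminotransferase turns each amino acid into its keto acid, and the branched-chain keto acid dehydrogenase complex commits that acid to breakdown. A kinase switches the complex off and a phosphatase switches it on. Liver is known for low aminotransferase and high dehydrogenase activity, while brown fat uses BCAA as fuel when it makes heat and white fat oxidises them as its cells mature.

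Total counts per library ran from 23711728 to 36503849 in liver, from 25304872 to 39383039 in BAT and from 28656921 to 43687848 in eWAT. Levels are given as CPM, counts scaled to a library total of 1000000 with TMM factors over the 48 libraries, and changes as log2 differences with their standard error (SE). Sums of marker genes are the exception, being printed as plain CPM without TMM factors. A change was called when the quasi-likelihood test of edgeR gave a p under 0.05 after Benjamini-Hochberg adjustment over every gene tested. In liver, Agt was 424 ± 88.3 CPM (SD, n = 4) in WT and 194 ± 31.6 in KO at RT (-1.14, SE 0.18, adjusted p 0.0096), and 482 ± 99.2 against 192 ± 40.6 at TN (-1.29, SE 0.18, adjusted p 0.00113), and in neither housing did the genotypes overlap. The KO mean was thus 45.8% of the WT mean at RT and 39.9% at TN, so much of the Agt signal of whole liver remained in KO, and whether it came from hepatocytes or other cells was not tested. The tissue labels were borne out by summed markers: 6 hepatocyte markers had a median of 70900 CPM in liver, 182 in BAT and 397 in eWAT, and 5 brown adipocyte markers had 6272 CPM in BAT, 93.4 in liver and 8.64 in eWAT. The 6 libraries listed next were rich in markers of another tissue: BAT KO RT replicate 14, BAT KO TN replicate 2 and BAT WT TN replicates 6 and 24, each with a skeletal muscle sum above 2000 CPM, eWAT KO RT replicate 16 with a hepatocyte sum of 4285 CPM, and eWAT WT RT replicate 18 with an epididymis sum of 908.5 CPM. These libraries were picked on TMM-scaled sums, above 2000 CPM for muscle markers in BAT. In eWAT the limits were 2000 CPM for hepatocyte markers and 100 CPM for epididymis markers. Hepatocyte sums were not used to pick BAT libraries, where KO TN replicate 2 reached 2356 CPM. Counts of members were repeated without the 6 libraries.

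The positions are those of GENCODE M21 on GRCm38, in which all 10 genes are protein-coding. Bcat2, the mitochondrial aminotransferase, lies at chr7:45570153-45589711 (plus). The dehydrogenase complex is represented by Bckdha at chr7:25629946-25658981 (minus) and Bckdhb at chr9:83925145-84124240 (plus), which form its decarboxylase, and by Dbt at chr3:116513070-116549981 (plus), its acyltransferase core. In the leucine branch, Ivd (isovaleryl-CoA dehydrogenase) lies at chr2:118861954-118882909 (plus), and the subunits of methylcrotonyl-CoA carboxylase are Mccc1 at chr3:35959312-36000678 (minus) and Mccc2 at chr13:99948530-100015639 (minus). Aldh6a1, which oxidises methylmalonate semialdehyde from valine, lies at chr12:84430717-84451004 (minus). Propionyl-CoA carboxylase, which acts on the propionyl-CoA left by isoleucine and valine, is encoded by Pcca at chr14:122534324-122891100 (plus) and Pccb at chr9:100982032-101034898 (minus). Exons of Bcat2, Bckdha, Aldh6a1, Pcca and Mccc1 overlap exons of a gene on the opposite strand, and since the strand setting of the counting is not given in the sources used here, reads of the shared stretches cannot be told apart.

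**Figure D1:**
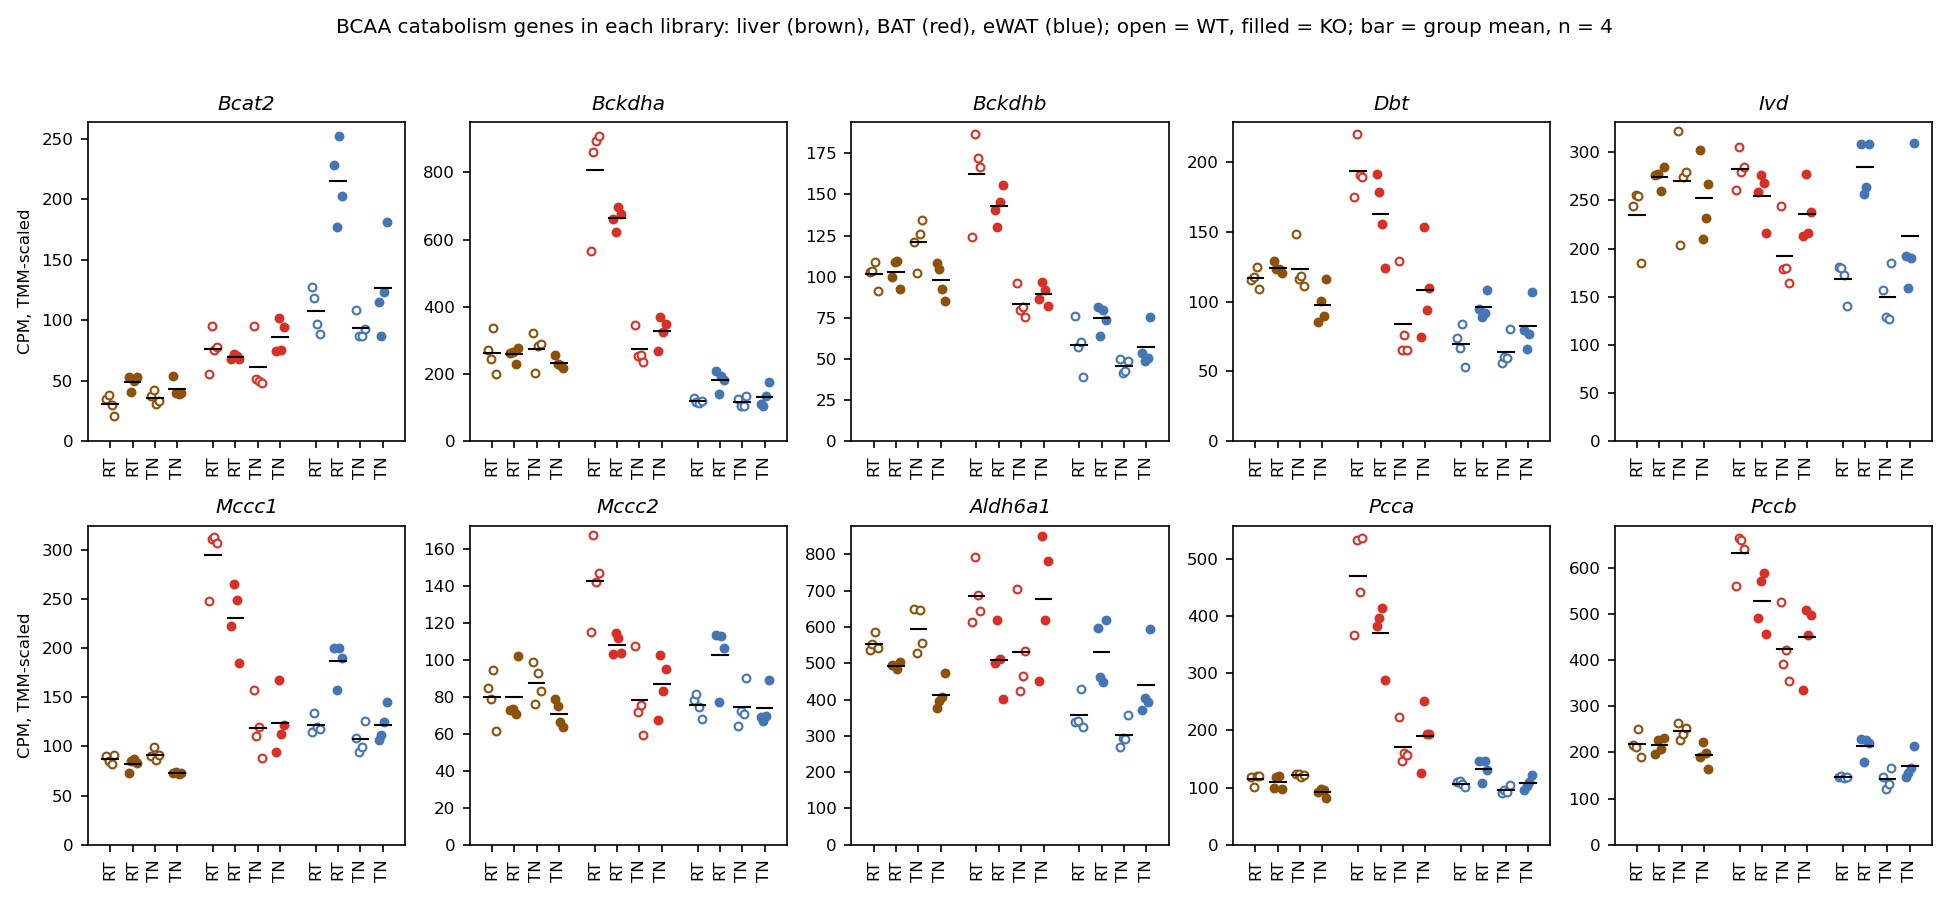
Level of each gene in the 48 libraries (y axis, TMM-scaled CPM from 0; x axis, the 4 genotype and housing groups of liver in brown, BAT in red and eWAT in blue; open points WT, filled points KO, bars group means, n = 4). Bckdha, Pcca and Mccc1 have their highest group means in BAT of WT mice at RT, and Bcat2 in eWAT of KO mice at RT.

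Liver was compared with both fat depots, each tissue being averaged over its 4 genotype and housing groups. On average and on the TMM scale, Bcat2 was low in liver, whereas the dehydrogenase genes were higher in liver than in eWAT. The propionyl-CoA carboxylase genes, Bckdha and Mccc1 were lower in liver than in BAT. Of the 21910 genes tested, 68.6% were called between liver and BAT and 73.8% between liver and eWAT, so a call by itself is common here.

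Bcat2 ranged from 20.9 to 53.7 CPM in the 16 liver libraries (median 39.4), from 48 to 102 in BAT (median 73.2) and from 86.7 to 252 in eWAT (median 117). All liver libraries were below all eWAT libraries, and BAT overlapped both. The difference was -1.72 (SE 0.10, adjusted p 1.54e-19) for liver minus eWAT, a level 3.29-fold lower, -0.89 (SE 0.10, adjusted p 7.55e-11) for liver minus BAT and -0.83 (SE 0.10, adjusted p 9.49e-10) for BAT minus eWAT. The opposite-strand neighbour of Bcat2, 0610005C13Rik, went the other way, with group means from 196 to 282 CPM in liver, 0.723 to 2.004 in BAT and 1.39 to 4.14 in eWAT, and its part in the level of Bcat2 was not tested.

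Bckdha spanned 201 to 338 CPM in liver (median 260.5), 237 to 909.9 in BAT (median 468) and 104 to 209.6 in eWAT (median 127). Liver minus BAT was -0.86 (SE 0.08, adjusted p 7.96e-13) and liver minus eWAT 0.92 (SE 0.08, adjusted p 1.1e-13). Bckdhb spanned 85.1 to 134 CPM in liver (median 104) and 39.1 to 81.5 in eWAT (median 55.6). Those ranges did not overlap, and the difference was 0.86 (SE 0.07, adjusted p 1.82e-14), while liver minus BAT, at -0.12 (SE 0.07, adjusted p 0.128), was not called. Dbt gave 0.58 (SE 0.09, adjusted p 3.65e-07) for liver minus eWAT and -0.18 (SE 0.09, adjusted p 0.0835) for liver minus BAT. These are averages over groups that differed. In WT at RT, liver minus BAT was -0.68 (SE 0.14, adjusted p 8.53e-05) for Bckdhb and -0.73 (SE 0.18, adjusted p 0.000804) for Dbt. In WT at TN it had the opposite sign, at 0.54 (SE 0.14, adjusted p 0.00148) and 0.56 (SE 0.18, adjusted p 0.00995). Liver minus eWAT was called in every group for Bckdha and Bckdhb, but for Dbt in WT only, with 0.37 (SE 0.18, adjusted p 0.0841) in KO at RT and 0.25 (SE 0.18, adjusted p 0.269) in KO at TN.

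In the leucine branch, Ivd had medians of 263 CPM in liver, 252 in BAT and 183 in eWAT, with 0.11 (SE 0.08, adjusted p 0.233) for liver minus BAT and 0.38 (SE 0.08, adjusted p 4.03e-05) for liver minus eWAT. The difference of Ivd from eWAT rests on the TMM scaling, since as a share of library totals its mean was higher in eWAT. Mccc1 was lowest in liver, at 72.3 to 98.95 CPM against 88.7 to 313 in BAT and 94.3 to 201 in eWAT. Its differences were -1.10 (SE 0.07, adjusted p 5.28e-18) from BAT and -0.66 (SE 0.07, adjusted p 2.84e-11) from eWAT. Its partner Mccc2 gave -0.35 (SE 0.08, adjusted p 0.00011) from BAT and -0.02 (SE 0.08, adjusted p 0.802) from eWAT, so only the first passed for this subunit.

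For propionyl-CoA carboxylase, every liver library was below every BAT library. Pcca was at 81.7 to 125 CPM in liver and 125 to 536 in BAT (-1.34, SE 0.07, adjusted p 2.63e-20). Pccb was at 163 to 264 CPM in liver and 335 to 664 in BAT (-1.21, SE 0.07, adjusted p 3.47e-20). Against eWAT the subunits parted, Pccb being higher in liver (0.39, SE 0.07, adjusted p 1.74e-06) and Pcca not called (-0.01, SE 0.07, adjusted p 0.91). Aldh6a1 had medians of 515 CPM in liver, 616 in BAT and 382 in eWAT, with -0.22 (SE 0.08, adjusted p 0.0135) for liver minus BAT and 0.35 (SE 0.08, adjusted p 0.000177) for liver minus eWAT.

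Averaged over the groups, 7 of 10 members were called lower in liver than in BAT, beside 37% of all genes, and 0 were called higher. Against eWAT, 6 were higher in liver, beside 35.5% of all genes, and 2 lower, beside 38.3%. BAT was above eWAT for 9 members, beside 29.2% of all genes, and below it for Bcat2 alone, beside 31.1% (60.3% called in either direction). The members' median was -0.61 for liver minus BAT (all genes -0.08), 0.37 for liver minus eWAT (all genes -0.05) and 0.66 for BAT minus eWAT (all genes -0.02). Without the 6 marker-rich libraries 7, 8 and 10 members were called in these comparisons. All these differences, and the counts by group below, are on the TMM scale. Its factors raised the CPM of every liver library and lowered that of every eWAT library. As a share of library totals, the mean of Ivd was higher in eWAT than in liver, and that of Dbt was nearly equal. The differences of Pccb and Aldh6a1 from eWAT were of similar size to that of Ivd. No fit between tissues used library totals alone.

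The counts were not alike in the 4 groups. For liver minus BAT in WT at RT, 8 members were lower (beside 28.5% of all genes) and 0 higher, with a median of -1.07 (all genes -0.05). In WT at TN, 4 were lower (beside 27.3%) and 3, Ivd, Bckdhb and Dbt, were higher (beside 22.7%), with a median of 0.08 (all genes -0.12). In KO, 7 were lower at RT (beside 27.3%) and 6 at TN (beside 25.7%), with 0 higher in either.

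For liver minus eWAT, most members were higher in liver in the WT groups. At RT these were 6 of 10 in WT (beside 25.2% of all genes) and 2, Bckdha and Bckdhb, in KO (beside 26.6%). At TN they were 7 in WT (beside 26.4%) and the same 2 in KO (beside 25.1%). Bcat2 was lower in liver in all 4 groups. Mccc1 was called lower as well in all but WT at TN, which makes 2 lower in WT at RT (beside 28.8%), 2 in KO at RT (beside 27%), 1 in WT at TN (beside 27.7%) and 2 in KO at TN (beside 26.3%). The medians were 0.52 in WT and -0.08 in KO at RT, and 0.82 and 0.06 at TN, beside -0.06, 0.00, -0.03 and 0.00 over all genes. The genotype difference itself was tested as the genotype effect in eWAT minus that in liver, which 0 members passed at RT and 1, Aldh6a1, at TN.

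BAT was above eWAT for 9 members in WT at RT (beside 18.8% of all genes) and for 5 in each other group (beside 18.7% in KO at RT, 17.5% in WT at TN and 15.2% in KO at TN). Bcat2 was the 1 member called lower in each group, beside 23%, 19.7%, 16.9% and 16.9% of all genes in the same order.

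**Figure D2:**
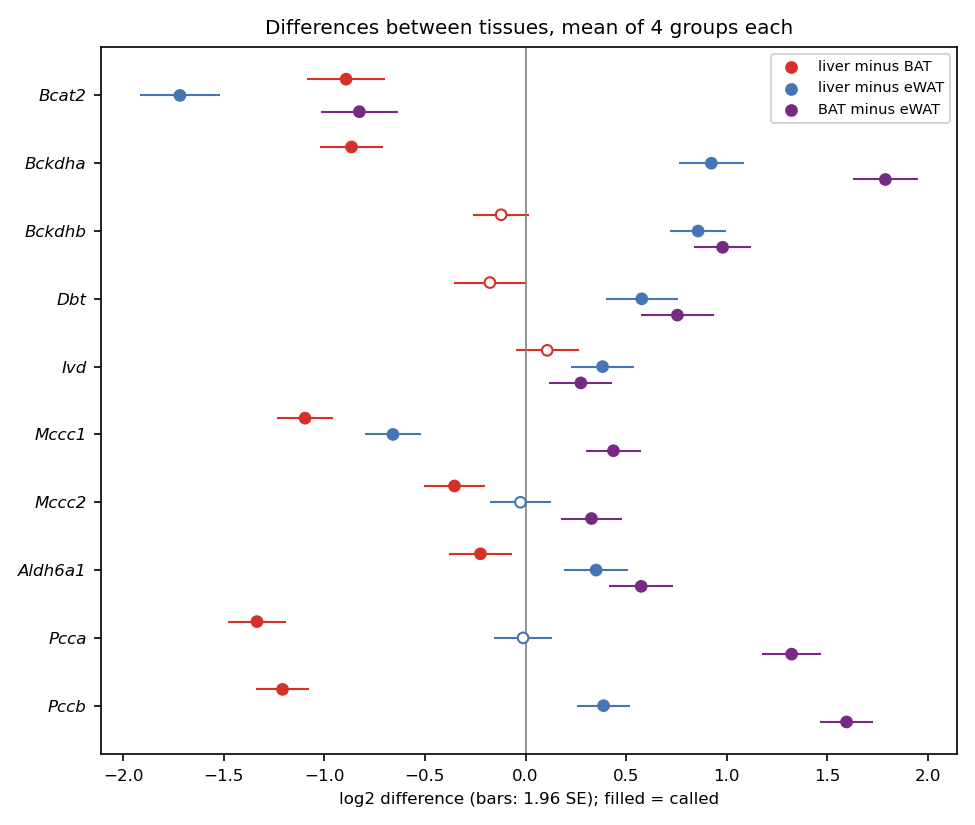
Log2 differences between tissues for the 10 genes (x axis; points with 95% intervals from the SE; filled where called), each tissue averaged over its 4 groups. Bcat2 is the only gene below 0 in all 3 comparisons, and Pcca and Pccb lie furthest below 0 for liver minus BAT.

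A reference list of 10 other mitochondrial genes, such as citrate synthase Cs and the pyruvate dehydrogenase subunit Pdha1, had a median of -2.78 for liver minus BAT, with 10 of 10 lower, against the -0.61 of the BCAA genes. For liver minus eWAT its median was -0.43, with 3 higher and 7 lower, and for BAT minus eWAT 9 of 10 were higher. Of the 20 other genes of BCAA breakdown, 5 were higher and 12 lower in liver than in BAT.

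Of the 3 tissues, liver had the lowest level of the kinase of the dehydrogenase complex and the highest level of its phosphatase. Bckdk, the inactivating kinase, had group means from 16.4 to 16.7 CPM in liver, 99.5 to 190 in BAT and 46.9 to 70.3 in eWAT. Ppm1k, the activating phosphatase, had group means from 125 to 145 CPM in liver, 18.2 to 29.6 in BAT and 9.02 to 12.8 in eWAT. Within single libraries the ratio of Bckdk to Ppm1k CPM had a median of 0.127 in liver (0.087 to 0.176), 5.98 in BAT (2.98 to 11.9) and 5.05 in eWAT (3.54 to 7.49). Liver overlapped neither depot in this ratio, while the depots overlapped each other. Liver minus BAT was -2.93 (SE 0.08, adjusted p 1.94e-31) for Bckdk and 2.64 (SE 0.11, adjusted p 2.95e-25) for Ppm1k, and liver minus eWAT was -1.68 (SE 0.08, adjusted p 1.98e-23) and 3.65 (SE 0.11, adjusted p 1.12e-29).

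**Figure D3:**
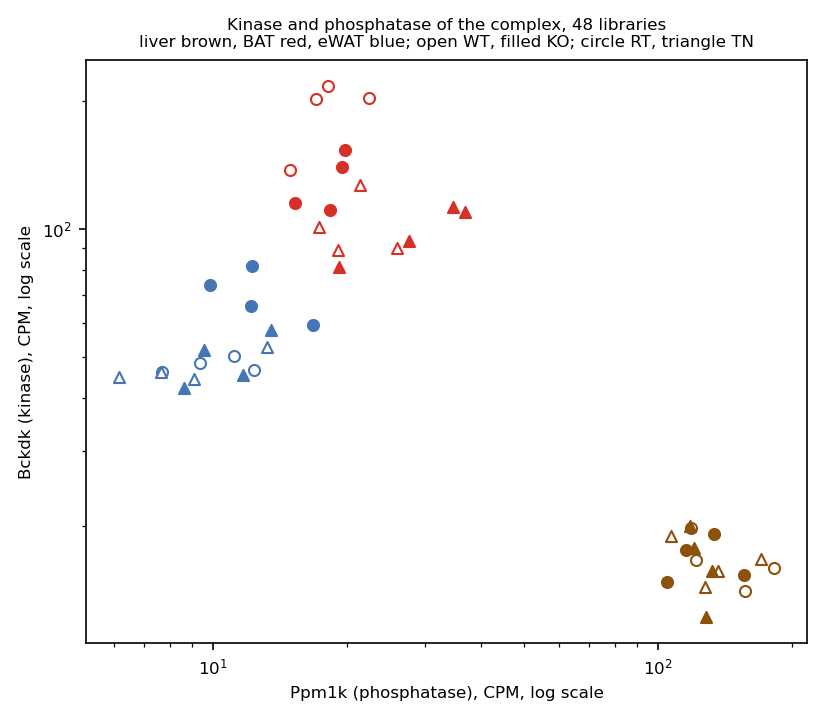
Bckdk (y axis) against Ppm1k (x axis) in each of the 48 libraries, in TMM-scaled CPM on log axes (liver brown, BAT red, eWAT blue; open WT, filled KO; circles RT, triangles TN). The liver libraries lie at the lower right, apart from both depots.

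Bcat1, the cytosolic aminotransferase, was listed at 0 in all liver libraries of 3 groups and reached at most 0.452 CPM in the remaining group, KO at TN. Its group means ran from 4.21 to 15 CPM in eWAT and from 0.384 to 1.88 in BAT. Slc25a44, a mitochondrial BCAA carrier, had group means from 54.1 to 81.5 CPM in liver, 76.6 to 132 in BAT and 43.1 to 59.7 in eWAT. It was lower in liver than in BAT (-0.52, SE 0.09, adjusted p 3.43e-06) and higher in liver than in eWAT (0.45, SE 0.09, adjusted p 3.06e-05).

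Housing temperature moved the genes in BAT. In WT, 8 of 10 members fell at TN, beside 16.7% of all genes (32.5% in either direction), and Bcat2 and Aldh6a1 did not pass. In KO, 4 of 10 fell, beside 8.52% of all genes (15.2% in either direction). Bckdha and Pcca had the largest changes in both genotypes. These changes are on the TMM scale. The TMM factors raised the CPM of WT RT replicates 15, 17 and 18 most and lowered that of WT TN replicates 6 and 7. As a share of library totals, the WT groups stayed apart for Bckdha, Bckdhb, Dbt, Mccc1 and Pcca but overlapped for Ivd and Mccc2. Pccb fell by about as much as Ivd under the same factors, so the falls of both rest on the scaling. No alternative fit used library totals alone. In bulk tissue, fewer cells of a type and less RNA per cell cannot be told apart.

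Among the dehydrogenase genes, Bckdha in WT BAT was at 567, 862, 892 and 909.9 CPM at RT and at 237, 254, 257 and 347 at TN. The groups did not overlap, with RT replicate 12 standing low and TN replicate 24 standing high. The change was -1.57 (SE 0.18, adjusted p 8.65e-06), a 2.97-fold lower level. In KO, Bckdha was at 623, 661, 675 and 696 CPM at RT and at 267, 324, 349.6 and 369 at TN, again without overlap (-1.05, SE 0.17, adjusted p 0.000528). Bckdhb in WT was at 124, 167, 172 and 187 CPM at RT and at 75.8, 79.4, 81.6 and 95.8 at TN (-0.97, SE 0.14, adjusted p 6.42e-05). These groups were apart as well, and so were those of KO (-0.71, SE 0.14, adjusted p 0.00187). Dbt in WT was at 175, 189, 191 and 220.4 CPM at RT and at 65.2, 65.5, 75.8 and 129 at TN (-1.22, SE 0.23, adjusted p 0.000729). In KO its groups overlapped, at 124 to 192 CPM and 74.9 to 154 CPM (-0.62, SE 0.23, adjusted p 0.08).

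The opposite-strand neighbour of Bckdha, B3gnt8, moved with it in WT, from 62.2 ± 13.7 to 21.1 ± 2.17 CPM (SD, n = 4), a change of -1.57 (SE 0.19, adjusted p 1.97e-05). Its level was below that of Bckdha in every BAT group. Ggact, the neighbour of Pcca, also fell in WT (-0.72, SE 0.18, adjusted p 0.00517), from 18.3 ± 4.17 to 11.2 ± 1.26 CPM. How much of each value belongs to which strand cannot be told apart from these counts.

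In the leucine branch, Mccc1 in WT BAT was at 248, 307, 310.5 and 313 CPM at RT and at 88.7, 111, 119 and 157 at TN, with no overlap (-1.31, SE 0.20, adjusted p 9.6e-05). It fell in KO too (-0.92, SE 0.19, adjusted p 0.00335), with 185 to 266 CPM at RT and 94.01 to 167 CPM at TN. Mccc2 in WT was at 115, 142, 147 and 167 CPM at RT and at 59.2, 72, 75.6 and 107 at TN (-0.87, SE 0.18, adjusted p 0.00105). The partner thus fell in WT, and in KO its change was -0.34 (SE 0.17, adjusted p 0.206). Ivd changed by -0.57 (SE 0.15, adjusted p 0.007) in WT and was at -0.14 (SE 0.15, adjusted p 0.622) in KO. Before scaling, its counts in WT were 5084 to 8530 at RT and 4229 to 7574 at TN, so this fall rests on the scaling.

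Pcca in WT BAT was at 368, 442, 533 and 536 CPM at RT and at 146, 157, 160.1 and 223 at TN, a change of -1.46 (SE 0.21, adjusted p 6.47e-05) or 2.75-fold lower. In KO it was at 288, 383, 397 and 415 CPM at RT and at 125, 193, 194 and 251 at TN (-0.98, SE 0.20, adjusted p 0.0032). Neither pair of groups overlapped. Its partner Pccb changed by -0.58 (SE 0.16, adjusted p 0.0112) in WT, and this call was lost without TN replicate 1 (adjusted p 0.065) or TN replicate 6 (adjusted p 0.0513). The fall of Pccb was of the size of that of Ivd and, like it, rests on the scaling. Aldh6a1 was at -0.37 (SE 0.20, adjusted p 0.17) in WT and 0.38 (SE 0.20, adjusted p 0.241) in KO. Bcat2 was at -0.32 (SE 0.20, adjusted p 0.239) in WT and 0.28 (SE 0.20, adjusted p 0.406) in KO.

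The median change of the members was -0.92 in WT, beside 0.11 over the 18032 genes tested, and -0.48 in KO, beside 0.04. Leaving out WT TN replicate 24, the highest library of its group for all 10 members, brought the WT count to 10. The 6 marker-rich libraries include WT TN replicates 24 and 6, so without them WT TN keeps only replicates 1 and 7. The WT count was then 9, with Bcat2 at -0.63 (adjusted p 0.0202). Under that omission 5 members passed in KO, 4 lower and Aldh6a1 higher at 0.68 (adjusted p 0.0245).

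**Figure D4:**
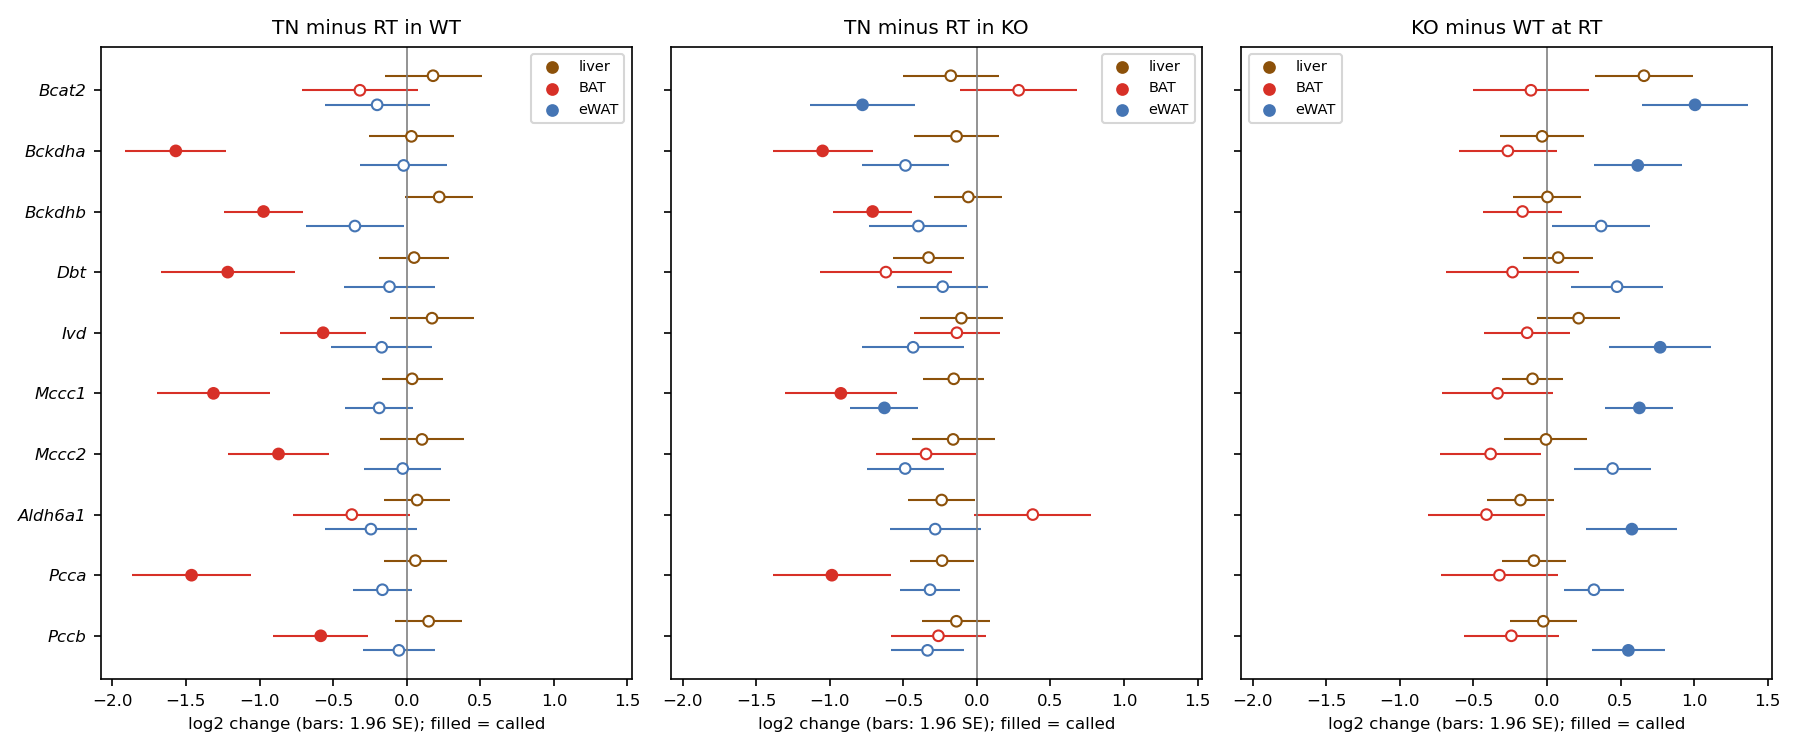
Log2 changes of the 10 genes with housing in WT (left), with housing in KO (middle) and with genotype at RT (right), in liver (brown), BAT (red) and eWAT (blue). The x axis is the log2 change with 95% intervals from the SE, and filled points were called: BAT fills 8 points in the left panel and eWAT fills 6 in the right panel.

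Other genes of mitochondrial metabolism fell in the same BAT libraries. All 10 genes of the mitochondrial reference list fell in WT (median -0.90), with Pdha1 at -1.37 (SE 0.22, adjusted p 0.000168) and Idh3a at -1.08 (SE 0.22, adjusted p 0.00117) in front, and 3 of 10 fell in KO. Of the 20 other BCAA genes, 15 fell and 0 rose in WT (median -0.89). They were led by Mcee, at -1.54 (SE 0.19, adjusted p 2.25e-05), and Mmab, at -1.52 (SE 0.19, adjusted p 2.03e-05), followed by Mmaa and Dld. Mcee acts just after propionyl-CoA carboxylase, Mmab and Mmaa handle the cobalamin cofactor of the next enzyme, and Dld is the subunit that the complex shares with pyruvate dehydrogenase. In KO, 5 fell and 1 rose, the latter being Ppm1k at 0.67 (SE 0.19, adjusted p 0.0227). Bckdk fell in WT (-0.90, SE 0.17, adjusted p 0.00071) and was at -0.41 (SE 0.17, adjusted p 0.117) in KO, and Slc25a44 fell in WT (-0.79, SE 0.20, adjusted p 0.00481).

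Of 6 transporters that bring BCAA into cells, 5 could be tested in BAT and 3 rose at TN in WT, beside 15.9% of all genes. Slc43a1 went from 1.53 ± 0.821 to 5.47 ± 2.402 CPM (SD, n = 4), a change of 1.82 (SE 0.50, adjusted p 0.00916), and Slc7a8 from 1.63 ± 0.407 to 4.48 ± 1.72 CPM, a change of 1.44 (SE 0.41, adjusted p 0.0125). Slc7a5 rose as well, but only to 1.25 ± 0.5704 CPM. Of 5 regulators, the factors Mlxipl (-0.69, SE 0.24, adjusted p 0.0307) and Pparg (-0.54, SE 0.17, adjusted p 0.0244) fell in WT. Klf15, known to drive BCAA genes, was at 0.46 (SE 0.37, adjusted p 0.363).

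Cell type markers moved with housing in these libraries. The brown adipocyte sum, with 5 of 5 markers detected, was 6677 to 10870 CPM at RT and 2886 to 6116 at TN in WT, and 6428 to 10350 and 2285 to 5037 in KO. The macrophage sum, with 5 of 5 detected, was 27.2 to 76.8 CPM at RT and 132 to 349.6 at TN in WT, and 32.8 to 39.3 and 117 to 176 in KO. The sum of 6 general adipocyte markers overlapped in WT, at 13770 to 16170 CPM at RT and 10970 to 15750 CPM at TN. In the TMM-scaled fit, Cidec (-1.25, SE 0.26) and Fabp4 (-0.93, SE 0.19) fell. The sums lack TMM factors, so they are not on the scale of these changes. The part of the cell type markers in the fall of the members was not tested.

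Whether the housing effect differed between tissues was tested over the 48 libraries, averaging both genotypes. It was lower in BAT than in liver for 7 of 10 members, beside 9.76% of all genes (16.8% in either direction), with Bckdha at -1.24 (SE 0.16, adjusted p 2.95e-07) and Pcca at -1.12 (SE 0.15, adjusted p 2.79e-07). It was lower in BAT than in eWAT for 5 of 10, beside 8.49% of all genes (16.5% in either direction), with Bckdha at -1.04 (SE 0.16, adjusted p 1.04e-05) and Pcca at -0.97 (SE 0.15, adjusted p 6.25e-06). Both tests share the BAT libraries. Against liver, Pccb lost its call without BAT KO TN replicate 2 (adjusted p 0.0522), liver KO TN replicate 22 (0.0501) or BAT WT TN replicate 1 (0.0501). Against eWAT, Bckdhb lost its call without eWAT KO TN replicate 5 (adjusted p 0.056) and without the marker-rich libraries (0.0691). For Bckdha, liver minus BAT was -1.62 in WT at RT and 0.00 in WT at TN.

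Sequences upstream of the RefSeq starts are shown for the pair with the largest fall in BAT, Bckdha and Pcca, and for the pair that did not pass there, Aldh6a1 and Bcat2. They are the 250 bases before each gene's start in RefSeq on GRCm38.p6, read 5′ to 3′ on the gene's strand. The RefSeq start of Bckdha lies inside the GENCODE gene, so 220 of its 250 bases fall within the gene position given above, as do 4 of those of Pcca and 0 of those of Aldh6a1 and Bcat2. Of the members, 9 of 10 had an entry, Dbt being the exception. Capitals mark letters of a CCAAT box (CCAAT) or a GC box (GGGCGG) on either strand. The windows are chr7:25658762-25659011 (minus) for Bckdha, chr14:122534078-122534327 (plus) for Pcca, chr12:84451025-84451274 (minus) for Aldh6a1 and chr7:45569903-45570152 (plus) for Bcat2.
Bckdha: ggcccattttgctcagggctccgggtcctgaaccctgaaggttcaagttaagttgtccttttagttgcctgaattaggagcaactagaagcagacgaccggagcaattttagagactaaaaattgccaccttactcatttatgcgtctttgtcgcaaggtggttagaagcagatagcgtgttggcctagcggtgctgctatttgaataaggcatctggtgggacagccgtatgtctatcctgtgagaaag
Pcca: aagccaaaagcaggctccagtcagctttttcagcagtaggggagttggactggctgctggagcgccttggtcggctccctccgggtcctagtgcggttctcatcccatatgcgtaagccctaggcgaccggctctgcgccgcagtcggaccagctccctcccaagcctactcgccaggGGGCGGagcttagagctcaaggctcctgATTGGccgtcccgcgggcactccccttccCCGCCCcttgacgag
Aldh6a1: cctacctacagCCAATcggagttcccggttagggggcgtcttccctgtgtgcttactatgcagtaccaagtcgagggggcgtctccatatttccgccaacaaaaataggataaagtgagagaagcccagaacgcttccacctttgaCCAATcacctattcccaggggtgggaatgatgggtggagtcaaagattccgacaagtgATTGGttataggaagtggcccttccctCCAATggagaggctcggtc
Bcat2: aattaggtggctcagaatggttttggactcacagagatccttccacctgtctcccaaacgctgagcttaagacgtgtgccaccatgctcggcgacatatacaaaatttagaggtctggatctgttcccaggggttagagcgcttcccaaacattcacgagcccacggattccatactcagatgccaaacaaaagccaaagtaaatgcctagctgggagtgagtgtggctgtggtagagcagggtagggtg
Each pair thus holds 1 window with such letters (Pcca, Aldh6a1) and 1 without (Bckdha, Bcat2). Over the 9 windows, a CCAAT box was found in 6, beside 33.8% of 32851 RefSeq windows of that length, and a GC box in 3, beside 32.7%. The E-box (CACGTG) was found in Mccc2 alone, beside 6.02% of all windows, and an NRF1 motif in Pccb alone, beside 3.74%. The letters of an ERR site (TCAAGGTCA, 0.387% of all windows), a CRE (TGACGTCA, 1.55%), an ETS core (CCGGAAGT, 2.88%) and a PPAR DR1 motif (0.0335%) were found in 0 of the 9.

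In eWAT, most calls came from the genotype at RT. There, 6 of 10 members rose in KO, beside 1.2% of all genes (4.34% in either direction), 0 fell, and all 10 estimates were above 0. Bcat2 had the largest rise. At TN, 0 members passed, beside 0.586% of all genes.

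Bcat2 in eWAT at RT was at 88.4, 96.5, 118 and 128 CPM in WT and at 177, 203, 228 and 252 in KO, a change of 1.01 (SE 0.18, adjusted p 0.00619) or 2.01-fold. Ivd was at 140.5, 172, 179.5 and 180.4 CPM in WT and at 257, 264, 308 and 309 in KO (0.77, SE 0.18, adjusted p 0.0202). Mccc1 was at 115, 118, 120 and 134 CPM in WT and at 157, 190.3, 199.9 and 201 in KO (0.63, SE 0.12, adjusted p 0.00721). For each of these genes the lowest KO library was above the highest WT library.

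Bckdha was at 115, 116, 119.6 and 128 CPM in WT and at 142, 183, 195 and 209.6 in KO (0.62, SE 0.15, adjusted p 0.0268). Pccb was at 144, 146, 146 and 149.6 CPM in WT and at 180.2, 220, 226 and 228 in KO (0.55, SE 0.13, adjusted p 0.0187). Aldh6a1 was at 326, 338, 341 and 429 CPM in WT and at 448, 461, 597 and 618 in KO (0.58, SE 0.16, adjusted p 0.0456). No groups overlapped here either. The members that did not pass were Dbt (0.48, SE 0.16, adjusted p 0.0981), Mccc2 (0.45, SE 0.13, adjusted p 0.066), Bckdhb (0.37, SE 0.17, adjusted p 0.262) and Pcca (0.32, SE 0.10, adjusted p 0.0904). The overlapping genes B3gnt8 (0.56, SE 0.15, adjusted p 0.0448) and Ggact (0.67, SE 0.17, adjusted p 0.0283) rose in the same comparison.

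The members' median was 0.56, beside 0.00 over the 18933 genes tested. The count was 3 without WT RT replicate 18, the library with the epididymis markers, or without KO RT replicate 19, and 8 without KO RT replicate 16 or KO TN replicate 5. Mccc1 and Bcat2 passed whichever single library was left out. Without the 6 marker-rich libraries 4 members passed, Ivd (adjusted p 0.0724) and Aldh6a1 (adjusted p 0.0974) being lost.

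Of the 20 other BCAA genes, 5 rose and 0 fell in KO eWAT at RT (median 0.31). They were Hsd17b10 (0.64, SE 0.17), Mmaa (0.61, SE 0.14), the kinase Bckdk (0.56, SE 0.11), Echs1 (0.52, SE 0.14) and Acadsb (0.48, SE 0.11), of which Hsd17b10, Echs1 and Acadsb act in oxidation steps of the isoleucine branch. In the mitochondrial reference list 5 of 10 rose (median 0.36), led by Sdha (0.56, SE 0.10). The transporter Slc43a1 rose from 6.505 ± 1.02 to 17.6 ± 4.41 CPM (SD, n = 4), or 1.45 (SE 0.30, adjusted p 0.0135), and Ppargc1a, a coactivator of mitochondrial genes, by 1.30 (SE 0.31, adjusted p 0.023).

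**Figure D5:**
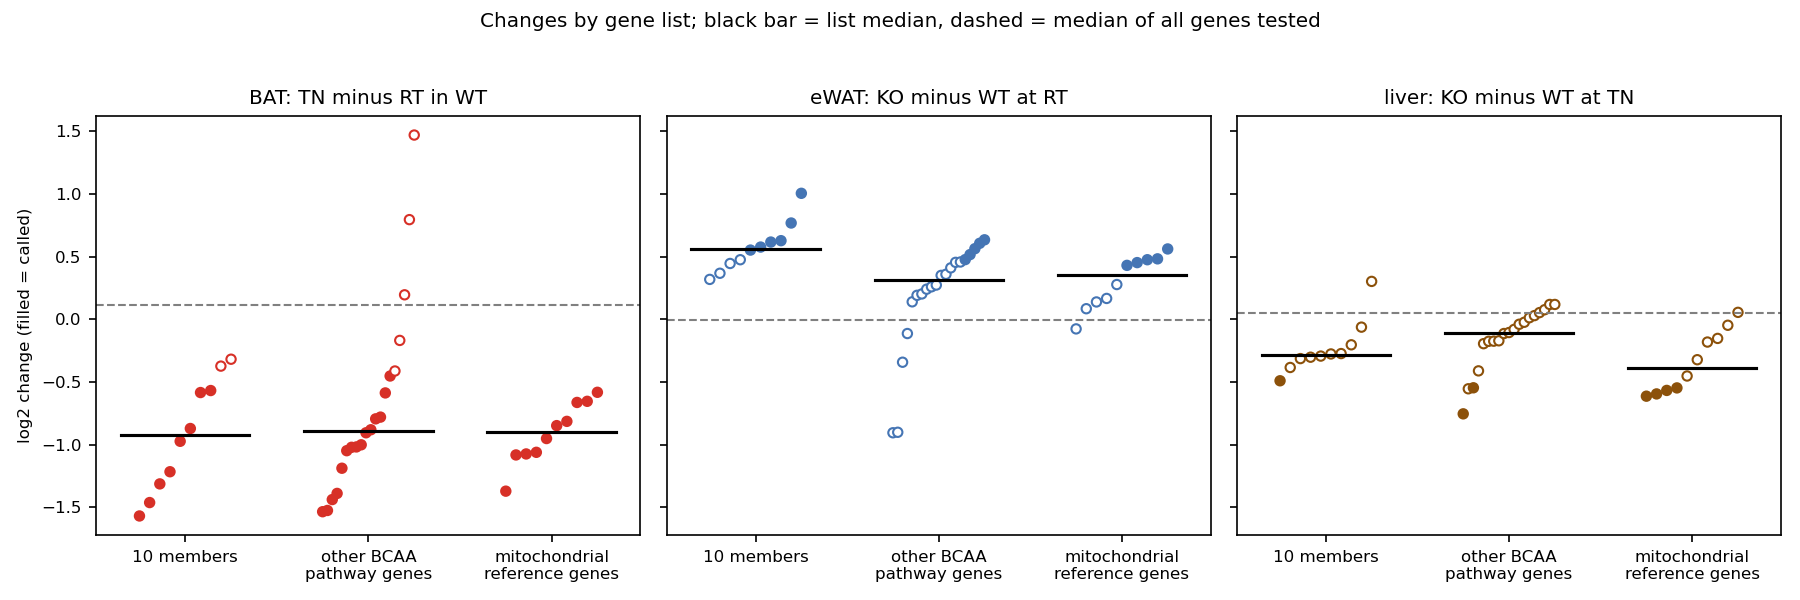
Log2 changes (y axis) of the 10 members, the other BCAA pathway genes and the mitochondrial reference genes for BAT (TN minus RT in WT), eWAT (KO minus WT at RT) and liver (KO minus WT at TN). Filled points were called, black bars are list medians and dashed lines the median of all genes tested; in BAT the list medians are -0.92, -0.89 and -0.90.

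Macrophage markers moved with genotype in the same eWAT libraries. Their sum, with 5 of 5 detected, was 505 to 764 CPM in WT and 364 to 557 in KO at RT, and Itgax (-2.16, SE 0.43), Trem2 (-1.86, SE 0.39) and Cd68 (-0.87, SE 0.24) fell in KO. The adipocyte sum overlapped, at 22180 to 28980 CPM in WT and 22460 to 32810 in KO. Their part in the rise of the members was not tested.

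At TN, 9 of 10 members had eWAT estimates above 0 for KO minus WT, with Aldh6a1 at 0.54 (SE 0.16, adjusted p 0.116) and Bcat2 at 0.43 (SE 0.18, adjusted p 0.299). An unadjusted p under 0.05 was reached by 5 members, beside 2603 of all 18933 genes. DESeq2 called 1 member, Aldh6a1 (adjusted p 0.0231), beside 675 of all genes. Bcat2 in KO at TN was at 86.7, 115, 123 and 181 CPM, and replicate 5 was the highest library of that group for all 10 members.

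Housing in eWAT gave no call for any gene in WT by edgeR (0%), with 1324 genes and 0 members at an unadjusted p under 0.05. DESeq2 called 100 genes there and 0 members. In KO, Bcat2 (-0.78, SE 0.18, adjusted p 0.0406) and Mccc1 (-0.63, SE 0.12, adjusted p 0.0212) fell at TN, 2 of 10 beside 0.718% of all genes (1.74% in either direction). The Bcat2 groups overlapped. This count was 0 without KO RT replicate 19, KO TN replicate 3 or KO TN replicate 21, 1 without KO RT replicate 9 or 10, KO TN replicate 4 or WT TN replicate 7, 5 without KO RT replicate 16, 6 without KO TN replicate 5, and 5 without the 6 marker-rich libraries. In the same comparison 4 of 10 mitochondrial reference genes fell, as did Bckdk and Dld among the BCAA genes.

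In liver, the organ of the deletion, 1 member was called. At TN, Aldh6a1 was at 528, 557, 647 and 649 CPM in WT and at 378, 396, 407 and 474 in KO, without overlap (-0.49, SE 0.12, adjusted p 0.0217). That is 1 of 10, beside 1.85% of all genes (3.18% in either direction). Its opposite-strand neighbour Bbof1 fell too, from 8.67 ± 1.102 to 3.51 ± 1.68 CPM (SD, n = 4). The call of Aldh6a1 was lost when KO TN replicate 2, 4 or 22 or WT TN replicate 1 or 6 was left out, with adjusted p from 0.0591 to 0.0812. Pcca was at 118, 123, 124 and 125 CPM in WT and at 81.7, 91.4, 95.4 and 98.2 in KO, also apart but not called (-0.38, SE 0.11, adjusted p 0.0568). Bcat2 was the only member with an estimate above 0 (0.30, SE 0.17, adjusted p 0.37).

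The members' median in liver at TN was -0.28 for KO minus WT, beside 0.05 over the 17594 genes tested. Of 19 other BCAA genes tested, Abat (-0.75, SE 0.13) and the mutase gene Mut (-0.55, SE 0.11) fell, and genes of the mitochondrial reference list that fell included Pdha1, Ogdh and Sdha. Pparg fell as well (-1.24, SE 0.32, adjusted p 0.0476). The macrophage sum was 71.8 to 84.6 CPM in WT and 102 to 248 in KO, and its part in these changes was not tested.

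At RT, 0 members passed in liver by edgeR, beside 0.0853% of all genes. Bcat2 was at 20.9, 29.5, 35.1 and 37.9 CPM in WT and at 40.4, 50.03, 53.1 and 53.2 in KO. These groups did not overlap, and the estimate was 0.66 (SE 0.17, adjusted p 0.133). Bcat2 was the 1 member with an unadjusted p under 0.05, beside 1799 of all 17594 genes. DESeq2 called Bcat2 (adjusted p 0.0365), beside 203 of all genes. Housing gave 0 called members in WT liver (0.0227% of all genes) and in KO liver (0.114%). An unadjusted p under 0.05 was reached by 0 members in WT and 3 in KO, beside 1276 and 1849 of all 17594 genes. DESeq2 called 0 members in either, beside 75 genes in WT and 362 in KO.

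The genotype gave 0 called members in BAT by edgeR, beside 0.0887% of all genes at RT and 0% at TN. The share at RT depends on the tool: edgeR called 16 genes, or 0 with RLE scaling, and DESeq2 called 981, while 3507 had an unadjusted p under 0.05. At TN, 945 genes had an unadjusted p under 0.05 and DESeq2 called 20. At each temperature 1 member had an unadjusted p under 0.05, and DESeq2 called 0 members. The members' estimates were all below 0 at RT (median -0.25) and all above 0 at TN (median 0.20).

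The interaction of genotype and housing was called by edgeR for no gene of any tissue (0% in each). An unadjusted p under 0.05 was reached by 1290, 1832 and 1439 genes, among them 1, 4 and 4 members, and DESeq2 called 17, 21 and 12 genes and 0 members. For Bckdha in BAT the interaction was 0.52 (SE 0.24, adjusted p 0.487), so a difference between the falls in WT and in KO was not shown. For Bcat2 in eWAT it was -0.58 (SE 0.26, adjusted p 0.64), and a difference between the genotype effects at RT and at TN was not shown either.

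The genotype effect was compared between eWAT and liver as well. At RT, 0 members passed by edgeR, beside 0.278% of all genes. An unadjusted p under 0.05 was reached by 5 members, beside 2485 of all 21910 genes. DESeq2 called Mccc1 (adjusted p 0.0266) and Aldh6a1 (adjusted p 0.0458), beside 346 of all genes. At TN, Aldh6a1 passed with 1.06 (SE 0.23, adjusted p 0.0125), 1 of 10 beside 0.835% of all genes (1.62% in either direction). Its levels at TN were 595 ± 62.2 CPM in WT liver, 414 ± 42.2 in KO liver, 303 ± 38.3 in WT eWAT and 441 ± 103 in KO eWAT (SD, n = 4).

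Levels of different genes were compared per kilobase of merged exons. Bckdha ranked first in each tissue, with medians of 137 CPM per kilobase in liver, 247 in BAT and 67.01 in eWAT, and Mccc1 ranked last, at 7.77, 16.1 and 11.2. Bcat2 had 10.1 CPM per kilobase in liver and 29.9 in eWAT. Neighbours in these orders overlapped over the 16 libraries of a tissue, except Pcca (22.7) and Bcat2 in liver. The order depends on the length used: with the longest principal transcript, Aldh6a1 came first in liver (152 CPM per kilobase) and in eWAT (112), and Mccc1 was no longer last in any tissue.

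The gene whose pattern over the 12 group means was most like a member's, of 12990 compared, was Gpd2 for Pccb (Pearson r 0.996), Pdhx for Pcca (Pearson r 0.995), Mto1 for Bckdha (Pearson r 0.991), Mrpl38 for Bckdhb (Pearson r 0.980), Acaca for Mccc1 (Pearson r 0.976), D2hgdh for Dbt (Pearson r 0.972), Faap20 for Bcat2 (Pearson r 0.958), Pex3 for Mccc2 (Pearson r 0.923), Fdft1 for Ivd (Pearson r 0.920) and Ints3 for Aldh6a1 (0.896). These points share tissues and libraries, so r is a description only. Among the members, Bckdhb and Dbt were most alike (0.955), and Bcat2 reached at most 0.522, with Mccc1.

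Spread between replicates differed among the members. The mean coefficient of variation within groups was lowest for Mccc1 in liver (4.89%) and highest for Dbt in BAT (23.9%). In BAT, WT RT replicate 12 was the lowest library of its group for 10 of 10 members on the TMM scale. As a share of library totals it was the highest for Mccc1, Ivd and Dbt and the lowest for Bckdha, Bckdhb and Bcat2. On the TMM scale, WT TN replicate 24 and KO TN replicate 3 were the highest of their groups for 10 of 10. KO TN replicate 2, which had the highest skeletal muscle sum, was the lowest for 9 of 10.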

How the data were processed

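RNA had been extracted from snap-frozen tissue, and paired-end libraries were made with NEBNext Ultra kits, per the labels' protocols. The values are the raw counts per gene that the authors deposited, 1 table per library. Reads were processed with fastp, STAR 2.6.1d and featureCounts 1.5.0-p3 on GRCm38 (mm10), per the submitters' processing notes. The annotation release, the strand setting and the treatment of reads with several matches are not given in the sources used here. Symbols came from GENCODE M21, which names 52073 of the 56748 identifiers (91.8%). Whether that release is the one counted is not known, so its coordinates and lengths may differ from those used.

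Each tissue was fitted over its 16 libraries with edgeR 4.0.16 in R 4.3.3 (TMM, filterByExpr with a minimum count of 10, robust quasi-likelihood F tests, two-sided, Benjamini-Hochberg over all genes), with 5 comparisons per tissue. Tissues were compared in 1 fit over 48 libraries with 7 comparisons, without the replicate number. No 2 libraries of a group agreed within sampling noise (lowest chi-square per degree of freedom 15.9). Labels call the replicates biological. Total counts per library were at least 23711728. The procedure was also run on simulated counts that shared a single mean profile apart from genes changed on purpose. That run does not test the scaling between BAT groups. Alternatives were RLE scaling, other filters, DESeq2 1.42.0, fits to only the libraries compared, the replicate number as a block, and leaving out each library. Chosen after seeing the data were the principal transcript length and the omission of 6 libraries rich in markers of another tissue. The 10 genes, the gene lists and the tests were chosen with earlier results of these data known. Named beside the members are Agt, Bckdk, Ppm1k, Slc25a44, Bcat1, up to 4 called genes per list and comparison, and the gene most like each member. Klf15, Acadsb and the genes that overlap members were named after their values were seen. The values of 1 gene of the mitochondrial reference list are not reported here.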

Additional observations from a re-analysis of the deposited data

Results flagged for a closer look

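Of 120 sets of values (10 members in each of 12 groups of 4 libraries), 13 held a library that stood apart. Its gap to the nearest other library was too large a part of the group's range by Dixon's critical value for 4 libraries. Chance gives about 1 in 20 for a set taken alone. The members of a group share its libraries and scaling, so the 13 cannot be set against that rate. Levels here are TMM-scaled, and as a share of library totals BAT WT RT replicate 12 was not low for Mccc1. In BAT these were WT RT replicate 12 for Bckdha (567.2 CPM, the others 861.9 to 909.9) and Mccc1 (247.5 CPM, the others 306.8 to 312.7), and WT TN replicate 24 for Bcat2 (95.3 CPM, the others 48 to 51.47) and Dbt (129 CPM, the others 65.15 to 75.84). In eWAT they were KO TN replicate 5 for Mccc2 (89.26 CPM) and Aldh6a1 (593.8 CPM), KO RT replicate 16 for Pccb (180.2 CPM), WT TN replicate 8 for Dbt (80.77 CPM) and WT RT replicate 15 for Aldh6a1 (429 CPM). In liver they were KO TN replicate 2 for Bcat2 (53.68 CPM), WT RT replicate 18 for Ivd (185.5 CPM), KO RT replicate 9 for Mccc2 (102.1 CPM) and WT RT replicate 12 for Pcca (101.3 CPM).

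Effects that differed between tissues by edgeR's test of the difference itself were of 3 kinds. The housing effect was lower in BAT than in liver for Bckdha (-1.244), Pcca (-1.124), Mccc1 (-1.05), Bckdhb (-0.913), Dbt (-0.767), Mccc2 (-0.57) and Pccb (-0.418). It was lower in BAT than in eWAT for Bckdha (-1.045), Pcca (-0.971), Dbt (-0.731), Mccc1 (-0.701) and Bckdhb (-0.455). Without eWAT KO TN replicate 5 the adjusted p of Bckdhb was 0.056, and without BAT KO TN replicate 2, liver KO TN replicate 22 or BAT WT TN replicate 1 that of Pccb in BAT minus liver was 0.0501 to 0.0522. The genotype effect at TN was higher in eWAT than in liver for Aldh6a1 (1.064).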

How the results depend on the processing

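Of 220 log2 changes of the members (10 in 22 comparisons), 59 were called, and all 59 kept direction and call under RLE scaling, DESeq2 and the filter of at least 1 CPM in 4 libraries. Without a filter on low counts, Pccb lost its call for the housing effect in BAT minus liver (adjusted p 0.0537). In liver KO minus WT, DESeq2 called 1 member instead of 0 at RT (beside 203 of 17594 genes) and 2 instead of 1 at TN (beside 1111). The 1 CPM filter also gave 2 at TN (beside 644 of 14326 genes). In eWAT, DESeq2 called 1 instead of 0 in KO minus WT at TN (beside 675 of 18933 genes) and 5 instead of 2 in TN minus RT in KO (beside 1154). For the genotype effect in eWAT minus liver it called 2 at RT (beside 346 of 21910 genes) and 2 at TN (beside 857). Fits to only the 8 libraries compared called 0 in liver KO minus WT at TN and 0 in eWAT TN minus RT in KO. Without the 6 libraries rich in markers of another tissue, 5 members were called in eWAT TN minus RT in KO and 2 for the genotype effect in eWAT minus liver at TN. The cause of these shifts was not tested.

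Leaving out 1 library gave 0 to 1 called members in liver KO minus WT at TN, 3 to 8 in eWAT KO minus WT at RT, 0 to 6 in eWAT TN minus RT in KO, 7 to 10 in BAT TN minus RT in WT and 4 to 5 in KO.

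Replicate numbers recur between tissues, and the labels do not say that they mark the same animal. Deviations of same-numbered libraries correlated with medians of -0.058 (BAT and eWAT), 0.024 (BAT and liver) and 0.026 (eWAT and liver), and 1 of 35 pairs was over 0.1, so the data do not show a pairing. With the replicate number as a block, liver minus BAT called 6, the housing effect 5 in BAT minus liver and 4 in BAT minus eWAT, and the genotype effect in eWAT minus liver at TN 0. The calls lost there were Pccb (adjusted p 0.204) and Mccc2 (0.0672) in BAT minus liver, Bckdhb (0.253) in BAT minus eWAT, and Aldh6a1 in liver minus BAT (0.135) and in the genotype effect (0.8717, adjusted p 0.283). Within a tissue the compared groups share no numbers.

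Signs turned only among changes that were not called. By setting these were Bckdhb in liver KO minus WT at RT (RLE -0.0049, DESeq2 -0.0051), Pcca (0.0137) and Mccc2 (0.0005) in liver minus eWAT under the 1 CPM filter, Bcat2 (0.0228) for housing in BAT minus liver and Ivd (0.0002) in BAT minus eWAT without a filter, Ivd there with the replicate block (0.0538), and Bckdhb in the eWAT interaction without the marker-rich libraries (0.0343). When 1 library was left out, 24 changes crossed 0. In liver KO minus WT at RT these were Pccb (-0.0731 to 0.0361), Bckdha (-0.1324 to 0.0908), Bckdhb (-0.0362 to 0.0459) and Mccc2 (-0.1524 to 0.0678), at TN Ivd (-0.1844 to 0.0297), and in TN minus RT in WT Bckdha (-0.0612 to 0.1657), Mccc1 (-0.0036 to 0.0761) and Dbt (-0.0389 to 0.0918). In BAT they were Bcat2 in KO minus WT at RT (-0.2337 to 0.0182), and Pcca (-0.0042 to 0.3093) and Mccc1 (-0.123 to 0.2149) at TN. In eWAT they were Bckdha (-0.0172 to 0.2549) and Mccc2 (-0.1167 to 0.1) in KO minus WT at TN, Pccb (-0.1421 to 0.0216), Bckdha (-0.0939 to 0.0418) and Mccc2 (-0.1329 to 0.0435) in TN minus RT in WT, and Aldh6a1 (-0.2321 to 0.0401), Dbt (-0.2817 to 0.0041) and Bckdhb (-0.2235 to 0.0721) in the interaction. Between tissues they were Pcca (-0.0465 to 0.0024) and Mccc2 (-0.0608 to 0.001) in liver minus eWAT, Bcat2 (-0.1585 to 0.0626) for housing in BAT minus liver, Ivd (-0.1088 to 0.0785) for housing in BAT minus eWAT, and Bcat2 (-0.0622 to 0.305) for genotype in eWAT minus liver at TN. The members had counts in every library, and the part of depth in the calls was not tested.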
